A study of Mus musculus with 4 samples.

Results

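Cells of the distal convoluted tubule were taken here as single kidney cells carrying RNA of Slc12a3, the thiazide-sensitive sodium-chloride cotransporter NCC that defines this segment. A cell was counted when it had at least 500 detected genes, at most 20% of its UMIs (unique molecular identifiers, 1 per captured RNA molecule) from mitochondrial genes, at least 2 Slc12a3 UMIs and at most 1 UMI of Slc12a1, the cotransporter of the thick ascending limb. The rule found 287 Slc12a3 cells among 22838 filtered mouse kidney cells. The study measured 4 wild-type libraries with 10x Genomics 3′ v2 chemistry, 1 for each condition. The transplant was made of E12.5 kidneys of the C57BL/6N strain kept for 12 days within epididymal fat of hosts. The other libraries were kidneys in situ at E15.5 (ICR strain), E17.5 (C57BL/6) and P0, the day of birth (ICR). The host is labelled C57BL/6N in one place and NOD immunodeficient in another, and the labels do not say how many animals were pooled. Strain, host, site and total time of growth cannot be told apart between the transplant and P0, nor strain and age between E17.5 and the other in situ kidneys. Between the transplant and E17.5, both of C57BL/6 background, host, site and total time of growth cannot be told apart either.

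The distal convoluted tubule lies between the thick ascending limb and the connecting tubule and reclaims filtered sodium chloride through NCC, under the control of the WNK and SPAK kinases. Its early stretch in the adult mouse is marked by parvalbumin and by the magnesium channel Trpm6. Its late stretch shares with the connecting tubule the calcium-handling proteins Calb1 (calbindin), S100g (a smaller calbindin) and Trpv5, and the aldosterone-sensitive sodium channel ENaC. Loss of NCC function causes Gitelman syndrome, with salt wasting and low blood magnesium.

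The libraries held 7670 (transplant), 4158 (E15.5), 5551 (E17.5) and 10810 (P0) barcodes, with 57855356, 92387054, 42430540 and 99068204 UMIs in the same order. Slc12a3 cells had median UMI counts of 9560, 21076, 7879 and 9349.5, so a threshold of 2 UMIs reaches lower levels in the E15.5 cells. Between 27 and 108 barcodes were shared by each pair of libraries, and 0 of the Slc12a3 cells shared a barcode with a Slc12a3 cell of another library. Mitochondrial genes took a median of 8.90%, 10.1%, 8.22% and 9.13% of the UMIs of Slc12a3 cells, against 3.72%, 3.81%, 3.34% and 3.58% over all filtered cells. The P0 library, though labelled wild type, held 8181 UMIs of tdTomato, a red fluorescent reporter, and the others 0. With 1 library a condition no test between conditions was possible. Levels are UMIs summed over the Slc12a3 cells of a library, as CPM (UMIs scaled to the same total in every library), and intervals are 95% intervals of counting error only, which leave out the variation between animals.

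Slc12a3 cells made up 3.11% [2.71, 3.56] of the transplant, 206 of 6618 cells (Clopper-Pearson intervals). They made up 0.449% [0.257, 0.728] at E15.5 (16 of 3565 cells), 0.636% [0.426, 0.911] at E17.5 (29 of 4563) and 0.445% [0.312, 0.615] in the P0 kidney (36 of 8092). The interval of the transplant lay above those of the 3 in situ kidneys, whose intervals overlapped one another. Among endothelial cells, called by at least 2 UMIs of both Pecam1 and Kdr and taken as a type that should lack NCC, 4 of 426 transplant cells (0.939%) had at least 2 Slc12a3 UMIs, as did 0 of 209 at E15.5, 0 of 347 at E17.5 and 3 of 687 in the P0 kidney (0.437%). The endothelial median depths were 10595, 31386, 12430 and 12005 UMIs. The P0 share of 0.445% was therefore not above its endothelial share, and nothing is read from the size of the P0 share alone. At birth, 3 of the 36 Slc12a3 cells also had at least 2 UMIs of the endothelial gene Pecam1.

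Both companion markers were higher in Slc12a3 cells than in other cells of every library, which is a description, since Slc12a3 chose the cells. Tmem52b, a transmembrane protein gene of the distal nephron, stood at 1454 CPM in the Slc12a3 cells of the transplant, 1777 at E15.5, 828 at E17.5 and 581 in P0 cells, against 135.6, 28.8, 19.7 and 20.3 CPM in the other cells of the same libraries. Emx1, a homeobox transcription factor, stood at 498, 334, 497 and 230.0 CPM, against 49.95, 6.59, 10.6 and 4.91 CPM. Just outside the threshold, cells with 1 Slc12a3 UMI numbered 267, 50, 32 and 94 in the order transplant, E15.5, E17.5, P0 and had 271, 36.4, 112 and 85.6 CPM of Tmem52b. Just inside it, the 22, 2, 4 and 4 cells with 2 UMIs had 624, 1527, 504 and 674 CPM. The cells with 2 UMIs were mixed: in the transplant they carried 779 CPM of Slc34a1, the phosphate transporter of the proximal tubule, and at E17.5 they carried 1042 CPM of the proximal gene Kap. Cells with at least 10 Slc12a3 UMIs numbered 132, 8, 17 and 19. Their Tmem52b levels were 1636, 2148, 864 and 609 CPM.

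**Figure D1:**
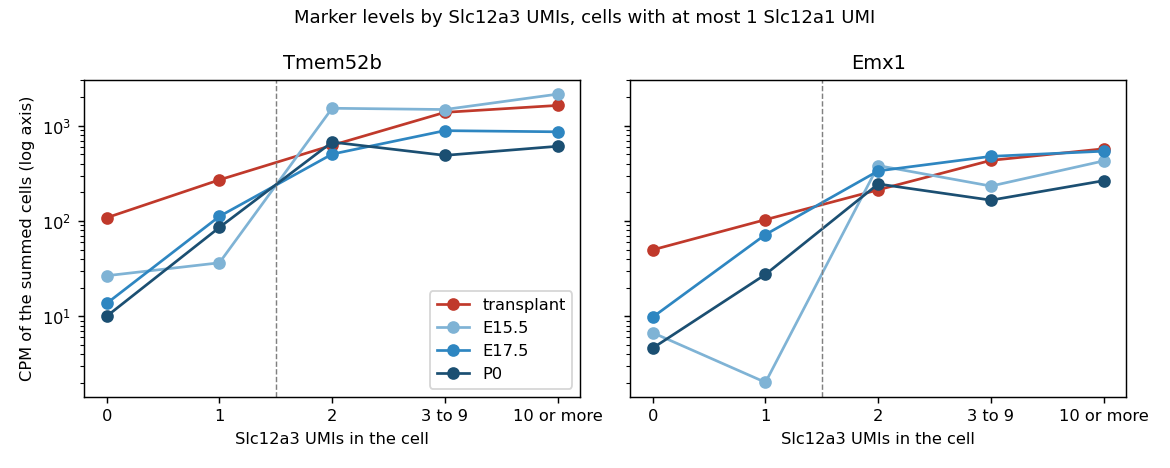
CPM of Tmem52b (left) and Emx1 (right) on log axes, summed over cells grouped by their Slc12a3 UMIs, with 1 line for each library and the threshold of 2 UMIs drawn as a dashed line. In each library both genes were higher in every group of cells with 2 or more UMIs than in cells with 0 or 1.

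The promoters of Slc12a3, of its companion marker Tmem52b and of S100g, a calcium-binding gene whose level ran over a wide range among the Slc12a3 cells, are shown because the results below turn on these 3 genes. On GRCm38, Slc12a3 lies at chr8:94329201-94366214 (plus strand), Tmem52b at chr6:129512555-129519227 (plus), Emx1 at chr6:85187438-85204462 (plus), S100g at chrX:162961992-162964599 (minus) and Klk1 at chr7:44225360-44229618 (plus). Each sequence is the 250 bases before the RefSeq transcription start on GRCm38.p6, given 5′ to 3′ on the gene's strand, at chr8:94328958-94329207 (plus strand) for Slc12a3, chr6:129512307-129512556 (plus strand) for Tmem52b and chrX:162964600-162964849 (minus strand) for S100g. Capitals mark 2 motifs searched on both strands, the TATA box TATAAA and AAGGTCA, the extended site bound by estrogen-related receptors such as Esrrg; the reverse complement of AAGGTCA is printed as it reads on this strand.
Slc12a3: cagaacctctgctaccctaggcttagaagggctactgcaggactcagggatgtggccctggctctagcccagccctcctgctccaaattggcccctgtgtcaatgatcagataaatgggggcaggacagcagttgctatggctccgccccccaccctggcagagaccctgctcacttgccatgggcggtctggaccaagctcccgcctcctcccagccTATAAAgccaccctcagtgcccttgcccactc
Tmem52b: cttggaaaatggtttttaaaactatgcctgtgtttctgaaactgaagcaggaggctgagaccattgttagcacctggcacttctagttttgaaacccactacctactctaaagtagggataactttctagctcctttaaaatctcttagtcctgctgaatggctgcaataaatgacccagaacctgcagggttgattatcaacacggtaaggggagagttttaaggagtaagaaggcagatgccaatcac
S100g: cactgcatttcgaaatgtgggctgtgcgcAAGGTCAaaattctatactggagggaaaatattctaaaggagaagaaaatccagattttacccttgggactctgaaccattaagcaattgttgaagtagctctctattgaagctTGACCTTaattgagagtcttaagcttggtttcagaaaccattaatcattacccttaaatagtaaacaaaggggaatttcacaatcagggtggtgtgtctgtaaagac
Slc12a3 had TATAAA with its first base at -32, counted from the start site. S100g had AAGGTCA on the plus strand at -221 and on the minus strand at -107, and neither motif occurred in these letters of Tmem52b. TATAAA occurred in 12.4% and AAGGTCA in 4.08% of 32851 such mouse promoters, and a match describes letters only.

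Beside Slc12a3 itself, the genes highest in Slc12a3 cells over the other cells of every library included several of salt and ion transport. Of 12276 genes counted in all 4 libraries, 257 (2.09%) were called higher in each, meaning at least 2-fold with the counting interval clear of 1, and 193 (1.57%) lower. The cells were chosen by Slc12a3, so this is a description. The 15 leading genes were Slc12a3, Abca13, Pgam2 (muscle-type phosphoglycerate mutase), Tmem52b, Emx1, Kcnj10 (a basolateral potassium channel), Defb1 (a defensin), Klhl3 (the adaptor that targets WNK kinases for degradation), Slc16a7 (a monocarboxylate transporter), Trpv6 (an epithelial calcium channel), Kcnj1 (the secretory potassium channel ROMK), Wnk4, Tmem72, Cacna2d2 and Tmem213. Abca13, which encodes a lipid-type ABC transporter, had 44.2 CPM in the transplant, 98.9 at E15.5, 48.5 at E17.5 and 129 in P0 cells, against 1.05, 0.355, 1.63 and 1.04 CPM in the other cells. Pgam2 had 463, 213, 372 and 199.7 CPM, against 30.3, 1.58, 5.40 and 2.08 CPM. For both genes the other cells of the transplant stood above or near those of the in situ kidneys.

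Set against the next tubule segment upstream, the Slc12a3 cells had few UMIs of thick ascending limb genes and more of a small set led by Emx1 and Pgam2. The comparison cells had at least 2 Slc12a1 UMIs and at most 1 of Slc12a3, and numbered 611 in the transplant, 37 at E15.5, 183 at E17.5 and 548 in the P0 library. In all 4 libraries 24 genes (0.508% of 4720) were called higher and 31 (0.657%) lower in Slc12a3 cells. Slc12a3 and Slc12a1 chose both sets of cells and are among these genes, so this is a description. Emx1 was 37.7-fold higher in the transplant, 102-fold at E15.5, 43.0-fold at E17.5 and 59.5-fold at P0. Rhcg (an ammonia transporter), Calb1, Defb1, Scube3, Cldn8 (a tight-junction claudin), Tox3, S100g, Klhl3 and Kl (klotho, the co-receptor of the hormone FGF23) were also among the genes higher in each library. On the other side Irx1 and Irx2, homeobox factors of the loop of Henle, were low. Irx1 had 1.77 CPM in Slc12a3 cells of the transplant, 1.94 at E15.5, 4.04 at E17.5 and 0 in P0 cells, against 402, 318, 320.4 and 174 CPM in Slc12a1 cells. Umod (uromodulin) had 11.9, 3.88, 0 and 0 CPM, against 1122, 43.3, 244 and 504 CPM, and Cldn16, the claudin of paracellular magnesium and calcium uptake, had 3.54, 1.94, 0 and 2.53 CPM, against 164, 37.4, 133 and 136 CPM. Fxyd2, the gamma subunit of the sodium pump, had 3399, 1806, 2433 and 2181 CPM in Slc12a3 cells, against 5733, 816, 4383 and 4245 CPM in Slc12a1 cells.

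The neighbouring segments downstream were approached through cells with at least 20 S100g UMIs, 0 of Slc12a3 and at most 1 of Slc12a1, which numbered 281, 36, 69 and 163. The cutoff of 20 was set after the data had been seen, because 2 or more S100g UMIs were found in 32.4% of transplant endothelial cells. In all 4 libraries 21 genes (0.713% of 2945) were called higher and 17 (0.577%) lower in Slc12a3 cells. This too is a description, since Slc12a3 and S100g chose the cells and Slc12a3 is among the higher genes. Ppp1r1a, an inhibitor of protein phosphatase 1, had 377 CPM in Slc12a3 cells of the transplant, 202 at E15.5, 182 at E17.5 and 205 in P0 cells, against 12.9, 12.7, 14.3 and 6.55 CPM in the S100g cells. Wnk1, the kinase gene with a kidney-specific short form in this segment, had 682, 184, 360 and 591 CPM, against 97.1, 36.6, 101 and 51.9 CPM. Fxyd2, Kcnj1, Fabp3 (a fatty acid binding protein), Tmem72, Trpm7 and the metallothioneins Mt1 and Mt2 were likewise higher in each library. Emx1, Tmem52b, Klhl3 and Wnk4 were not called higher in all 4 libraries against these S100g cells. The genes lower in Slc12a3 cells included genes of the connecting tubule and collecting duct. Aqp2, the vasopressin-regulated water channel, had 26.5, 58.2, 52.5 and 20.2 CPM, against 712, 222, 1105 and 529 CPM, and Aldh1a3 (a retinaldehyde dehydrogenase) had 0.885, 9.70, 4.04 and 15.2 CPM, against 54.9, 211, 211 and 319 CPM. Slc12a1 cells also carried Ppp1r1a, at 445, 123, 320.4 and 393 CPM.

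**Figure D2:**
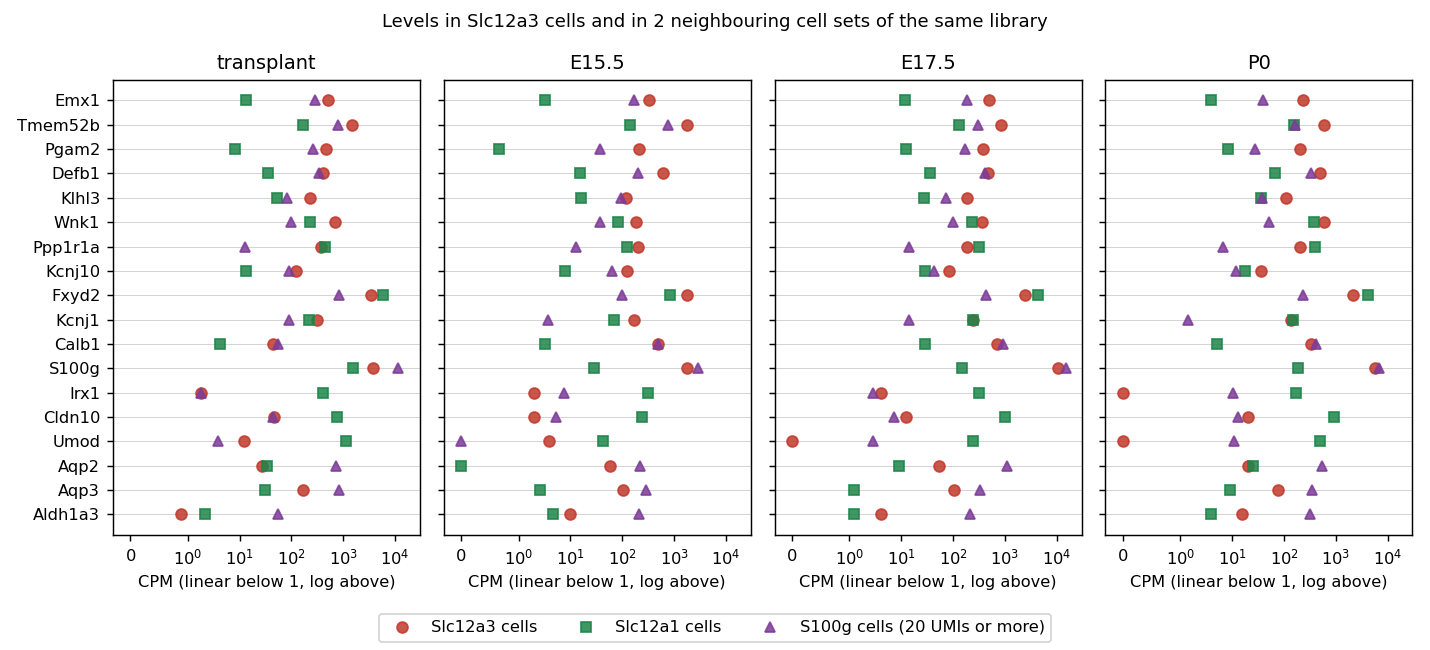
CPM of 18 genes in Slc12a3 cells (circles), Slc12a1 cells (squares) and S100g cells with 20 UMIs or more (triangles) of each library, on an axis that is linear below 1 and logarithmic above. Emx1 and Tmem52b stood highest in Slc12a3 cells in all 4 libraries, Irx1, Cldn10 and Umod in Slc12a1 cells, and Aqp2, Aqp3 and Aldh1a3 in S100g cells. Neither Emx1 nor Tmem52b was called higher in Slc12a3 cells than in S100g cells in all 4 libraries.

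The levels of Slc12a3 are a description, since the rule used them and its 2 UMIs stand for a lower level in deeper cells, while its main kinases had UMIs in the Slc12a3 cells of every library. Slc12a3 had 2594 CPM [2528, 2661] in Slc12a3 cells of the transplant, 1069 [981, 1162] at E15.5, 2316 [2130, 2513] at E17.5 and 1466 [1349, 1590] in P0 cells. Single cells ran from 60.8 CPM to 18676 CPM with a median of 2550 in the transplant, from 36.8 to 4991 with a median of 1252 at E15.5, from 197 to 6127 with a median of 1914 at E17.5 and from 55.7 to 10277 with a median of 1302 at P0. The lower end of each range is set by the rule and the depth of the cell. Wnk4, the kinase that activates NCC, had 198 CPM in the transplant, 153 at E15.5, 125 at E17.5 and 134 in P0 cells. Klhl3 had 232, 120.2, 182 and 111 CPM. Stk39, which encodes the SPAK kinase that phosphorylates NCC, had 68.6, 54.3, 60.6 and 73.3 CPM, and Oxsr1, its close relative, 41.6, 36.8, 40.4 and 48.0 CPM.

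Of the 13 genes of the NCC control list, 9 had at least 50 UMIs over P0 and E15.5 together, and 2 of these were called higher at P0, where 5.86% of all 2766 genes counted were higher and 6.22% lower. Sgk1, the aldosterone-induced kinase, had 149 CPM at P0 and 21.3 CPM at E15.5 (6.99-fold [3.64, 14.8]), and 3 cells held 69.5% of its P0 UMIs. Wnk1 was 3.21-fold [2.52, 4.12] higher at P0. Against P0 all 13 were counted in the transplant and 3 were called higher and 1 lower, where 15.4% of all 6859 genes counted were higher and 5.13% lower. The median of all genes was 0.29 on the log2 scale there, and after centring on it 1 remained higher, Nedd4l, a ubiquitin ligase, with 93.8 CPM in the transplant and 12.6 CPM at P0 (7.42-fold [3.13, 23.1]). Sgk1 was lower, with 65.9 CPM in the transplant. Against E17.5 the transplant had 2 of 13 called higher, Ppp1r1a and Sgk1, where 6.89% of all 6676 genes counted were higher and 2.53% lower (9.42% in either direction). The comparisons of P0 with E15.5 and of the transplant with P0 share the P0 library, and those of the transplant with P0 and with E17.5 share the transplant.

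Several genes of basolateral salt exit were higher in the transplant than at P0. Bsnd, encoding barttin, had 145 CPM in the transplant, 69.8 at E15.5, 68.7 at E17.5 and 27.8 in P0 cells. The potassium channels Kcnj10 and Kcnj16 had 119.9 and 297 CPM in the transplant, 122 and 122 at E15.5, 84.9 and 218 at E17.5, and 35.4 and 93.5 at P0. P0 was the lowest library for these 3 genes. Against P0, 4 of the 8 counted genes of the list were called higher in the transplant and 0 lower, also after centring, Bsnd, Kcnj10 and Kcnj16 among them, with a list median of 1.13 on the log2 scale and 0.83 after centring. Before centring, 15.4% of all genes were higher there and 5.13% lower. Against E17.5 only Bsnd of the 8 was called higher, 2.11-fold [1.29, 3.66], beside 6.89% higher over all genes. Atp1b1, the beta subunit of the sodium pump, had 4422, 3293, 5407 and 2889 CPM in the order transplant, E15.5, E17.5, P0 and was not called in any of the 3 comparisons.

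Of the 13 genes of the magnesium list, 5 were counted at P0 against E15.5 (0 called higher, 1 lower), 6 in the transplant against P0 (1 and 1) and 5 in the transplant against E17.5 (0 and 1). Over all genes the shares called higher and lower were 5.86% and 6.22%, 15.4% and 5.13%, and 6.89% and 2.53% in the same order. Trpm7, a magnesium-permeable channel, and Cnnm2 were called higher than in the other cells in all 4 libraries, as a description. Trpm6 had few UMIs, with 10.2 CPM in the transplant (23 UMIs), 13.6 at E15.5 (7 UMIs), 16.2 at E17.5 (4 UMIs) and 15.2 in P0 cells (6 UMIs), and Egf, a magnesiotropic hormone of this segment, 2.65, 1.94, 8.08 and 5.06 CPM. Pvalb, encoding parvalbumin, had 3.097 CPM in the transplant, 114 at E15.5, 0 at E17.5 and 209.8 in P0 cells. It was found in 3 of 206, 7 of 16, 0 of 29 and 7 of 36 cells, and 3 cells held 84.3% of its P0 UMIs and 83.1% of those at E15.5. Most parvalbumin UMIs of the ICR libraries thus lay in a few cells, and its level in the transplant was 67.7-fold [31.5, 174] lower than at P0. Cnnm2, a basolateral magnesium transporter gene, had 27.4 CPM in the transplant and 84.9 CPM at E17.5 and was called lower.

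Calb1, of the late segment, was lower in the transplant than in the kidneys of E17.5 or P0. Calb1 had 44.2 CPM in the transplant, 483 at E15.5, 707 at E17.5 and 334 in P0 cells. It was 16.0-fold [12.4, 20.7] lower in the transplant than at E17.5 and 7.54-fold [5.77, 9.88] lower than at P0. Calb1 UMIs were found in 15.5%, 43.8%, 51.7% and 55.6% of Slc12a3 cells, and in 8.59%, 25.0%, 51.7% and 40.6% after thinning every cell to 3000 UMIs (163 of 206, 16 of 16, 29 of 29 and 32 of 36 cells were deep enough). The lower level was not confined to these cells, since the ratio of the transplant to E17.5 in the other cells was 0.0677. S100g, its smaller relative by function, had 3805 CPM in the transplant, 1808 at E15.5, 10431 at E17.5 and 5770.3 in P0 cells, with single cells between 0 and 93339 CPM and 50.9% of the P0 UMIs and 91.5% of the E15.5 UMIs in 3 cells. It was called lower in the transplant than at E17.5 (2.74-fold [2.62, 2.86]) and higher at P0 than at E15.5 (3.19-fold [2.96, 3.45]). In the transplant against P0 it was not called, at 1.52-fold lower, but its log2 ratio turned to 1.04 under a mitochondrial limit of 10% and to 0.39 when 1 Slc12a3 UMI sufficed. In the other cells it was higher in the transplant, with ratios of 5.94 to P0 and 3.70 to E17.5. Vdr, the vitamin D receptor, Pth1r, the parathyroid hormone receptor, and Kl were each called lower at P0 than at E15.5 and higher in the transplant than at P0, although of these Vdr alone was still called after centring in the transplant comparison. With cells thinned to 3000 UMIs the log2 ratio of Kl, transplant against P0, turned to -0.0205, and the log2 ratio of Vdr, transplant against P0, was 0.13. Vdr had 146 CPM in the transplant, 124 at E15.5, 125 at E17.5 and 40.4 in P0 cells.

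Most counted aldosterone-sensitive genes were called higher in the transplant than at P0, led by Klk1. Klk1, encoding tissue kallikrein, a protease that the connecting and late distal tubule secretes, had 1541 CPM in Slc12a3 cells of the transplant, 25.2 at E15.5, 16.2 at E17.5 and 12.6 in P0 cells. That was 122-fold [52.2, 376] above P0 and 95.3-fold [37.2, 350.1] above E17.5. Klk1 UMIs were found in 123 of 206, 5 of 16, 3 of 29 and 5 of 36 cells, and 3 transplant cells held 31.5% of the UMIs. Klk1 was also higher in the other cells of the transplant, at 246 CPM against 4.04 CPM at P0, a ratio of 60.8. Near-identical genes of the kallikrein family lie beside Klk1 on chromosome 7, and how shared reads were split is not given in the sources used here. Hsd11b2, the enzyme that protects the mineralocorticoid receptor from cortisol, had 386 CPM in the transplant, 175 at E15.5, 84.9 at E17.5 and 75.8 in P0 cells. The ENaC subunit Scnn1b had 304, 194, 166 and 75.8 CPM and the subunit Scnn1g 73.0, 91.2, 76.8 and 32.9 CPM. Of the 10 counted genes of this list, 7 were called higher in the transplant than at P0 and 0 lower, with a median of 1.14 on the log2 scale, and after centring 3 were, Hsd11b2, Klk1 and Scnn1b. Over all genes 15.4% were higher there and 5.13% lower, before centring. Against E17.5 the called genes were Fxyd4, Hsd11b2 and Klk1, beside 6.89% higher over all genes. Fxyd4 had 61 UMIs in 29 of the 206 transplant cells, 32 of them in 1 cell, and 1 UMI at E17.5. At P0 against E15.5 Hsd11b2, Scnn1b and Scnn1g were called lower among 4 counted, beside 6.22% lower over all genes.

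Several transcription factors of the distal nephron were lower at P0 than at E15.5. Sall3, a zinc-finger factor, had 126 CPM in the transplant, 180.4 at E15.5, 137 at E17.5 and 27.8 in P0 cells. Tfap2b, an AP-2 factor needed for this segment in the mouse, had 347, 475, 315 and 131 CPM. Hoxd8 had 385, 522, 404 and 192 CPM and Mecom 288, 506, 352 and 187 CPM. At P0 against E15.5, 6 of the 12 factors counted were called lower and 0 higher, Gata3, Hoxd8, Mecom, Sall3 and Tfap2b among them, with a list median of -1.03 on the log2 scale beside -0.08 over all genes. Over all genes 6.22% were called lower and 5.86% higher there. Sall3 was 6.49-fold [3.46, 13.4] lower. The deepest Slc12a3 cells of E15.5 had 86073 and 81609 UMIs, with 7 and 3 of Slc12a3, among 515615 UMIs summed over all 16. Their part in the E15.5 levels was not tested. Of 18 counted, 8 were called higher in the transplant than at P0 and 0 lower, and after centring 4 remained, Grhl2, Sall3 and Tfap2b among them. Before centring, 15.4% of all genes were higher there and 5.13% lower. Against E17.5, 0 of 18 were called higher and 1 lower, beside 6.89% and 2.53% over all genes. The lower one was Esrrg, an estrogen-related receptor, with 42.9 CPM in the transplant and 93.0 at E17.5. Dissociation stress genes were higher at P0. Of 20 immediate-early and heat-shock genes, 15 of 18 counted were called higher and 0 lower at P0 than at E15.5, with a median of 1.94, and 12 of 20 were called lower and 1 higher in the transplant than at P0. The shares over all genes were those given above, 5.86% higher at P0 than at E15.5 and 5.13% lower in the transplant than at P0. Atf3, a stress-induced factor, had 40.7 CPM in the transplant, 15.5 at E15.5, 154 at E17.5 and 877 in P0 cells, and its ratio of P0 to E15.5 in the other cells was 38.6. The part of stress gene levels in the lower factor levels was not tested.

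**Figure D3:**
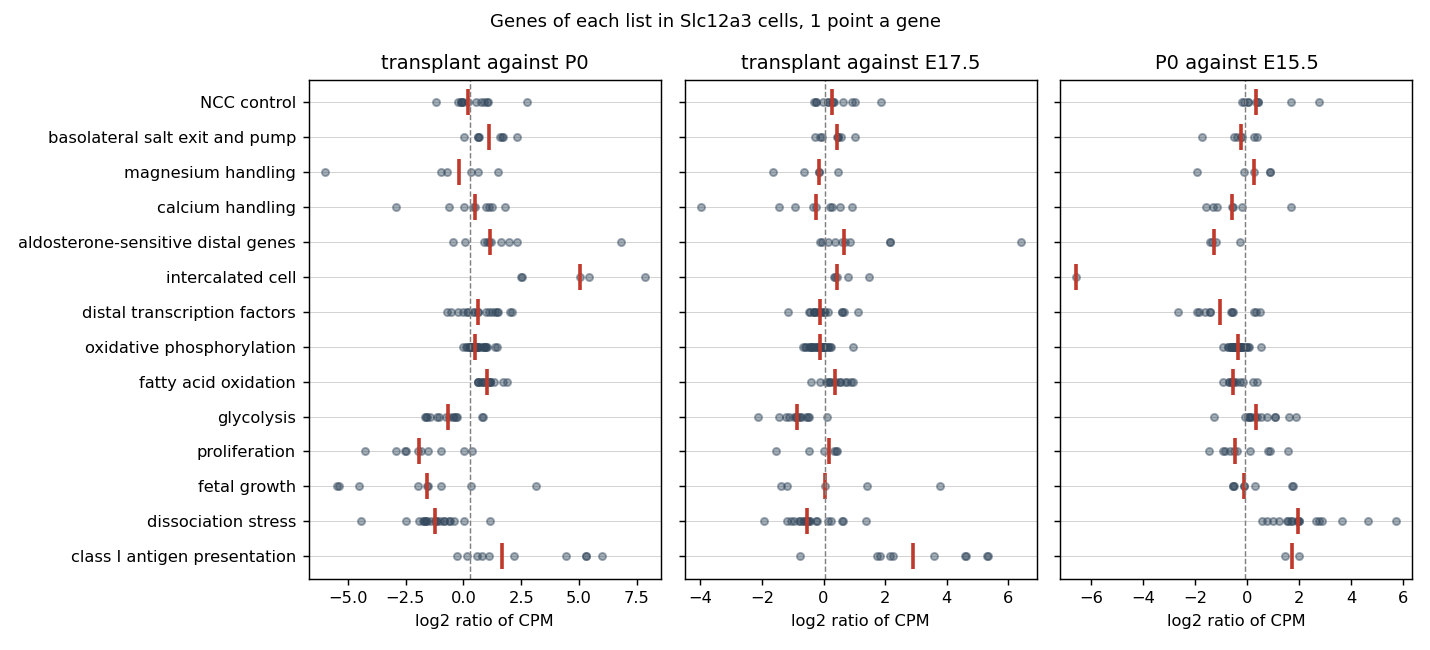
Log2 ratios of CPM in Slc12a3 cells for the transplant against P0, the transplant against E17.5 and P0 against E15.5, with 1 point for each gene of a list, red bars at list medians and dashed lines at the median of all genes counted (0.29, 0.06 and -0.08). Distal transcription factors lay left of the dashed line at P0 against E15.5 and dissociation stress genes right of it, and glycolysis lay left of it in both transplant comparisons.

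Glycolysis genes were lower in the transplant than in the P0 or E17.5 kidneys. Ldha, lactate dehydrogenase A, had 288 CPM in the transplant, 239 at E15.5, 784 at E17.5 and 877 in P0 cells, and the glucose transporter Slc2a1 had 32.3, 50.4, 141 and 85.9 CPM. Of 14 glycolysis genes counted, 6 were called lower and 0 higher in the transplant than at P0 (median -0.68), and 4 were called lower and 0 higher than at E17.5, Eno1, Ldha, Pgam1 and Slc2a1 (median -0.85). Over all genes 5.13% were lower and 15.4% higher than at P0, and 2.53% lower and 6.89% higher than at E17.5. In the comparison of P0 with E15.5 4 of 14 glycolysis genes were called higher and 1 lower, Hk1 (hexokinase), beside 5.86% and 6.22% over all genes. Fatty acid oxidation went the other way in the transplant against P0. There 7 of 14 genes were called higher and 0 lower, with a median of 1.003 (0.71 after centring, with 3 called), and Cpt1a, the enzyme that admits fatty acids to mitochondria, had 222 CPM in the transplant and 65.7 CPM at P0 (3.38-fold [2.28, 5.22]). Against E17.5 0 of 14 fatty acid oxidation genes were called. Of 30 oxidative phosphorylation genes 3 were called higher in the transplant than at P0, beside 15.4% over all genes before centring. After centring 1 remained (Ckmt1), and 0 were called in either other comparison.

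Proliferation and fetal growth genes were lower in the Slc12a3 cells of the transplant than at P0. Of 10 proliferation genes counted 7 were called lower and 0 higher (median -1.91), and of 9 fetal growth genes 6 were called lower and 1 higher. Over all genes 5.13% were lower there and 15.4% higher. Against E17.5, 1 of 6 proliferation genes was called lower and 0 higher (median 0.18). Of 5 fetal growth genes 2 were called higher and 2 lower than at E17.5 (median 0.05), beside 6.89% higher and 2.53% lower over all genes. Igf2, a fetal growth factor, had 7.08 CPM in the transplant, 89.2 at E15.5, 16.2 at E17.5 and 298 in P0 cells, and the imprinted RNA H19 had 10.2, 132, 44.5 and 452 CPM. E17.5 stood nearer to the transplant than to P0 for both genes. At P0, 3 cells held 67.8% of the Igf2 UMIs and 70.4% of the H19 UMIs. The histone gene Hist1h2ap, a gene of replicating cells, was 81.7-fold [43.2, 174] lower in the transplant than at P0, and 3 cells held 75.5% of its P0 UMIs. The growth gene called higher than at P0, Cdkn1c, a cell-cycle inhibitor of podocytes, had 588 CPM in the transplant and 65.7 CPM at P0. In the transplant 3 cells held 83.6% of its UMIs. Among cells with at least 10 Slc12a3 UMIs the log2 ratio of Cdkn1c, transplant against P0, turned to -0.14.

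Antigen presentation genes were higher in the transplant than at E17.5 or P0. Of 10 counted genes of that list 8 were called higher and 0 lower against E17.5 (median 2.92), beside 6.89% higher over all genes, and 6 higher and 0 lower against P0 (median 1.65), beside 15.4%. Those called against P0 were Cd74, H2-Aa, H2-Ab1 and H2-Eb1, which serve class II presentation by immune cells, with H2-D1 and Tapbp of class I. After centring 5 were called against P0, without H2-D1. Cd74 had 241 CPM in the transplant, 1.94 at E15.5, 4.04 at E17.5 and 2.53 in P0 cells, and 3 of the 206 transplant cells held 83.3% of its UMIs. B2m, the class I light chain, had 209.7, 62.1, 44.5 and 250.2 CPM and was 4.72-fold [2.61, 9.51] higher than at E17.5. Macrophage markers summed to 28.3 CPM in Slc12a3 cells of the transplant and 12.6 CPM at P0, with 1 of 6 at 0 in the transplant and 3 at P0. Of these markers, Ptprc had at least 2 UMIs in 7 of the 206 transplant cells and in 0 of 36 at P0. The part of such cells in the Cd74 level was not tested. Lymphoid markers summed to 0.442 CPM in the transplant, with 5 of 6 at 0, and to 0 CPM at P0. Ccl5, a T-cell chemokine, had 165 CPM in the transplant and 2.53 CPM (1 UMI) at P0, a ratio of 65.3 [11.7, 2586], and 100% of its transplant UMIs lay in 3 cells.

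Of 26 distal segment epithelium genes, 8 were called higher and 2 lower in the transplant than at P0, and 5 and 3 after centring. Over all genes 15.4% were higher and 5.13% lower there. Against E17.5, 1 of 25 counted was called higher (Cldn3) and 1 lower (Krt18), beside 6.89% and 2.53% over all genes. At P0 against E15.5, 6 of 24 were called higher and 2 lower, beside 5.86% and 6.22% over all genes. The higher ones included the keratins Krt8, Krt18 and Krt19. Of 6 tubular injury genes counted, 4 were called higher and 0 lower in the transplant than at P0, beside 15.4% higher over all genes. Against E17.5, 2 of 6 were called higher (Timp2 and Vcam1) and 1 lower (Cryab). Spp1, encoding osteopontin, had 1381 CPM in the transplant, 184 at E15.5, 1273 at E17.5 and 495 in P0 cells, and Clu, encoding clusterin, had 637, 741, 331 and 169 CPM. Of 6 principal cell genes, 5 were called higher and 0 lower in the transplant than at P0, and 2 after centring, Hsd11b2 and Rhbg.

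Further genes were among the 6 highest and 6 lowest by the interval bound nearest 1. At P0 against E15.5 the highest were Atf3 (56.5-fold [28.4, 132]), Cxcl10, an interferon-induced chemokine (at least 32.6-fold, from a floor of 3 counts at E15.5), Fabp4 (48.2-fold [23.1, 121]) and Hspa1a, the inducible heat-shock protein (25.7-fold [14.5, 50.5]), with Maff and the endothelial receptor Flt1, which had 1 UMI each at E15.5 and ratios of 96.4 [16.8, 3860] and 74.3 [12.8, 2985]. Fabp4 is an endothelial and adipocyte gene, and 3 cells of P0 held 94.98% of its UMIs and 98.2% of those of Flt1. Endothelial markers summed to 429.7 CPM in Slc12a3 cells at P0 and 58.2 CPM at E15.5, and their part in these 2 genes was not tested. The lowest included Cited1, a transcriptional regulator of nephron progenitors (16.6-fold [5.44, 82.7] lower at P0, with 3 UMIs there), and G0s2, an inhibitor of lipolysis (7.45-fold [3.43, 19.2] lower). In the transplant against E17.5 the lowest beside Calb1 were Cyp51, a sterol synthesis enzyme (7.42-fold [4.25, 12.9] lower), Sec14l1 (3.88-fold [3.14, 4.77] lower) and Slc2a1 (4.38-fold [2.84, 6.64] lower), with Cryab, a small heat-shock protein, and Cndp2. At E17.5, 1 cell held 100% of the Cryab UMIs and Cndp2 UMIs lay in 6 of 29 cells. Beside Klk1, the highest were led by Ccl5, at least 13.6-fold higher from a floor of 3 counts at E17.5. Cd74 (59.6-fold [10.6, 2356]) and Cdkn1c (14.5-fold [7.88, 30.4]) came next. As given above, most transplant UMIs of Ccl5, Cd74 and Cdkn1c lay in 3 cells for each gene. After them came the matrix gene Sparc (16.1-fold [7.35, 43.9]) and Tmsb4x, which encodes an actin-binding peptide (9.29-fold [6.45, 13.9]). In the transplant 3 cells held 45.2% of the Tmsb4x UMIs. Stroma markers summed to 330 CPM in Slc12a3 cells of the transplant and 8.08 CPM at E17.5.

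Among the Slc12a3 cells of the transplant, high and low S100g went with other genes of the late segment. The 148 cells with at least 2 S100g UMIs were first set against the 27 with 0, where 4.84% of 6051 genes counted were called higher and 3.78% lower. Their median depths were 12167 and 4419 UMIs, so this split also went with depth. At least 2 S100g UMIs were found in 32.4% of transplant endothelial cells too. Klk1 had 1762 CPM in the cells with S100g and 128 CPM in those without (13.8-fold [8.99, 22.3]), and Scnn1b 348 and 48.7 CPM (7.14-fold [3.602, 16.6]). Endothelial markers stood at 72.8 CPM in the cells with S100g and 1578 CPM in those without. A stricter split was then made. Of the cells with at least 10 Slc12a3 UMIs, 48 had at least 20 S100g UMIs and 31 had at most 1, a split set after the data had been seen. The ENaC subunit Scnn1b had 416 CPM in the S100g-high cells and 66.1 CPM in the S100g-low cells (6.30-fold [3.63, 12.0]). Hsd11b2 had 550.1 and 112 CPM (4.92-fold [3.21, 7.93]), Klk1 1728 and 422 CPM (4.10-fold [3.28, 5.18]) and Calb1 66.4 and 15.2 CPM, the low value from 3 UMIs (4.35-fold [1.41, 21.8]). These 4 genes of the late segment and connecting tubule were higher in the S100g-high cells, and intercalated cell markers moved with the same split. Their sum was 655 CPM in S100g-high and 102 CPM in S100g-low cells, and 616 and 42.6 CPM in the first split. Foxi1, the transcription factor of intercalated cells, had 152 and 10.2 CPM, the low value from 2 UMIs (14.9-fold [4.05, 125]), and the receptor gene Kit had 91.9 and 0 CPM (at least 6.03-fold, from a floor of 3 counts). Aqp3, a basolateral water channel of principal cells, had 199 and 5.08 CPM, the low value from 1 UMI (39.2-fold [6.93, 1557]). Ppp1r1a ran the other way, with 274 CPM in the S100g-high and 788 CPM in the S100g-low cells (2.87-fold [2.32, 3.55] lower). Emx1, Wnk4 and Wnk1 were not called: Emx1 had 588 and 524 CPM, Wnk4 258 and 244 CPM, and Wnk1 867 and 981 CPM. Of 3332 genes counted, 6.12% were called higher in the S100g-high cells and 2.85% lower. The S100g-low cells were shallower, and the median depth was 16839.5 UMIs in S100g-high and 5160 UMIs in S100g-low cells. Stroma markers summed to 17.9 CPM in S100g-high and 773 CPM in S100g-low cells, and mural markers to 63.8 and 686 CPM, and the part of these in the split was not tested.

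A share of the Slc12a3 cells also carried genes of acid-base intercalated cells. Foxi1, the transcription factor that defines intercalated cells, and Atp6v1g3, a proton pump subunit, together reached at least 3 UMIs in 48 of 206 Slc12a3 cells of the transplant (23.3% [17.7, 29.7]), 3 of 16 at E15.5 (18.8% [4.05, 45.6]), 4 of 29 at E17.5 (13.8% [3.89, 31.7]) and 0 of 36 in the P0 kidney (upper bound 9.74%). In the other cells the shares were 3.45%, 0.620%, 0.640% and 0.832%, and in endothelial cells 0 of 426, 209, 347 and 687. All 55 of these cells had UMIs of Emx1 or Tmem52b. In the transplant their median of 13 Slc12a3 UMIs, in a range from 2 to 101, was close to that of all Slc12a3 cells, 14, and 31 of them had at least 10. Their median depth was 16553 UMIs against 7476 in the remaining Slc12a3 cells, with 51795 against 17667 UMIs at E15.5 and 7024.5 against 7912 UMIs at E17.5. In the transplant a doublet caller (Scrublet) removed 0 of the 48 while removing 19 of the 206. The cutoff of 3 UMIs was chosen after the data had been seen.

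**Figure D4:**
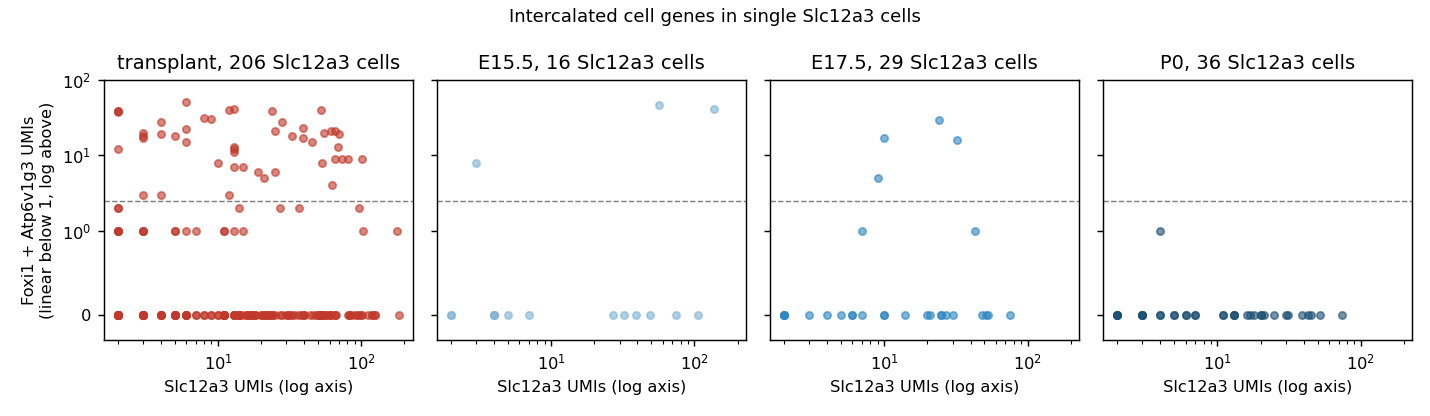
Summed Foxi1 and Atp6v1g3 UMIs of each Slc12a3 cell against its Slc12a3 UMIs (log axis), by library, with the cutoff of 3 UMIs drawn as a dashed line. Cells above the line had from 2 to 101 Slc12a3 UMIs in the transplant, 3 to 137 at E15.5 and 9 to 32 at E17.5, and 0 of the 36 P0 cells lay above it.

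These Foxi1 and Atp6v1g3 cells carried further intercalated cell genes. In the transplant they had 1551 CPM of Slc12a3 against 3202 CPM in the remaining Slc12a3 cells, and 478 against 509.8 CPM of Emx1. At E15.5 Emx1 had 334 against 333 CPM and at E17.5 285 (8 UMIs) against 524 CPM. Emx1 was not particular to them, since cells outside the Slc12a3 set that passed the same cutoff had 246 CPM of Emx1 and 635 CPM of Tmem52b in the transplant, and 102 and 378 CPM at E15.5. Kit, a receptor of intercalated cells, had 168 and 2.80 CPM (60.1-fold [22.9, 223]), and the proton pump subunit Atp6v0d2 had 138 and 6.30 CPM (21.9-fold [11.2, 49.2]). Slc4a1, the chloride-bicarbonate exchanger of the acid-secreting type, had 44.5 CPM in these cells, against 1.40 CPM from 2 UMIs in the remaining Slc12a3 cells (31.7-fold [8.19, 272]) and 47.2 CPM in the cells outside the set. Slc26a4, pendrin of the base-secreting type, had 6.01 CPM (5 UMIs), against 0.700 CPM (1 UMI) and 19.1 CPM. They were rich in late-segment genes, with 6521 against 2223 CPM of S100g and 476 against 204 CPM of Scnn1b, and poor in Ppp1r1a, with 181 against 492 CPM. They had 762 CPM of Atp6v1g3, against 1149 CPM in the cells outside the Slc12a3 set that passed the same cutoff, whose Slc12a3 level was 10.5 CPM. At E15.5 the 3 such cells had 35 Foxi1 and 61 Atp6v1g3 UMIs, where the other 13 Slc12a3 cells had 0 of either, and their S100g level was 4044 CPM against 672 CPM. In the comparison of the transplant with P0, 5 of 5 counted intercalated genes were called higher and 0 lower (median 5.02, with Atp6v1g3 at 0 at P0 and at least 38.0-fold higher from a floor of 3 counts in the library). Over all genes 15.4% were higher there and 5.13% lower. Against E17.5 1 of 5 was called higher, Atp6v1c2, beside 6.89% over all genes.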

How the data were processed

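The libraries were 10x Genomics 3′ v2 single-cell libraries. Each deposited matrix holds whole UMI counts for genes by cells, which the authors made with Cell Ranger 3.1.0 on GRCm38, per the submitters' processing notes, while the file headers name 3.0.2 for E15.5 and P0. A matrix joining 3 of the libraries was not used. From the counts, cells were filtered and chosen as stated, summed per library and scaled to CPM. Ratios have exact conditional binomial 95% intervals, shares Clopper-Pearson intervals. A gene was called at 2-fold or more with its interval clear of 1 and at least 50 UMIs over both libraries. Intervals and floors (3 counts in a library) cover counting error only. Doublets were kept. Scrublet scores (scanpy 1.11.5), with the highest removed at 0.8% per 1000 cells, took out 350, 102, 167 and 524 cells of the transplant, E15.5, E17.5 and P0, of which 19, 1, 0 and 5 were Slc12a3 cells, as an alternative. Genes named were any of the 6 transport, hormone and transcription factor lists, the 2 highest and 2 lowest of each other list, the 6 highest and 6 lowest of each comparison by the interval bound nearest 1, and the 15 leading genes against other cells. Others, and those named against Slc12a1 and S100g cells, were chosen after their values were seen. Some genes of the lists are not reported here. Positions and promoters came from GENCODE and RefSeq on GRCm38. The members and lists were chosen with earlier results of these data known. Alternatives changed the Slc12a3 threshold, the mitochondrial limit, depth by thinning, other-class markers, centring and the UMI minimum. The steps were tested on simulated data. Software was python 3.11.15, numpy 2.4.6, scipy 1.17.1, pandas 2.3.3 and matplotlib 3.10.9.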

Additional observations from a re-analysis of the deposited data

Results flagged for a closer look

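UMIs of tdTomato, a red fluorescent reporter that no comparison used, were found in the P0 library although all samples are labelled wild type. The Slc12a3 cells of P0 held 32 tdTomato UMIs, in 16 of the 36 cells, and those of the transplant, E15.5 and E17.5 held 0. The whole P0 library held 8181.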

How the results depend on the processing

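No paired analysis was possible because each condition is 1 library with no replicate number shared between conditions, and leaving out a replicate was not possible for the same reason. The share of Slc12a3 cells was 7.15% (transplant), 1.85% (E15.5), 1.34% (E17.5) and 1.61% (P0) with at least 1 Slc12a3 UMI, and 1.99%, 0.224%, 0.373% and 0.235% with at least 10, a threshold chosen after seeing the data. With at most 10% mitochondrial UMIs it was 2.19% in the transplant, 0.202% at E15.5 and 0.257% at P0. Thinning to 3000 UMIs gave 0.299% at P0, and leaving out cells with markers of other classes gave 2.02% in the transplant and 0.0281% at E15.5, where 1 cell was left. At E15.5, 15 of the 16 cells had at least 2 UMIs of the globin gene Hba-a1, and erythroid markers summed to 13182 CPM in the other E15.5 cells. In the transplant 72 of 206 cells carried such a marker, and 33 carried Lrp2 of the proximal tubule.

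For P0 against E15.5, with 162 genes higher and 172 lower, the counts were 610 and 484 with at least 1 Slc12a3 UMI, 98 and 112 with at least 10, 28 and 20 after thinning, 41 and 39 without cells carrying markers of other classes, 362 and 442 with at least 20 UMIs a gene, and 76 and 49 with at least 100; at most 10% mitochondrial UMIs gave 91 lower. For the transplant against P0, with 1053 higher and 352 lower, they were 1746 and 572 with at least 1 Slc12a3 UMI, 148 and 90 after thinning, 645 and 232 without cells carrying other markers, 584 and 606 after centring on the median of all genes, and 671 and 205 with at least 100 UMIs a gene; at least 10 Slc12a3 UMIs gave 699 higher and at least 20 UMIs a gene 538 lower. For the transplant against E17.5, with 460 higher and 169 lower, they were 1115 and 345 with at least 1 Slc12a3 UMI, 71 and 46 after thinning, and 289 and 79 with at least 100 UMIs a gene; leaving out cells with other markers gave 259 higher and at least 10 Slc12a3 UMIs gave 242 higher. Fewer cells or fewer counted genes lower these counts by construction.

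Reversed log2 ratios at P0 against E15.5 with at least 1 Slc12a3 UMI were 0.47 for Atp6v1g3, 0.0354 for Rhbg and -0.15 for Stmn1, with list medians of 0.17 for principal cell, 0.47 for intercalated cell and 0.18 for fatty acid oxidation genes. The log2 ratio of Clu, P0 against E15.5, was 0.0573 with at most 10% mitochondrial UMIs and 1.07 without cells carrying other markers, where the log2 ratio of Krt8, P0 against E15.5, was -0.92 and the medians were 3.48 for calcium handling and 0.67 for aldosterone-sensitive genes. The values without cells carrying other markers rest on 1 E15.5 cell. After thinning the calcium handling median was 0.96. The log2 ratio of Kl, transplant against P0, was -0.0205 after thinning. With at least 10 Slc12a3 UMIs the log2 ratio of Cdkn1c, transplant against P0, was -0.14 and the log2 ratio of Socs3, transplant against P0, was -0.0831. For the transplant against E17.5, Cryab was 0.28, the log2 ratio of Mest, transplant against E17.5, was -1.09 and the dissociation stress median 0.0018 with at least 1 Slc12a3 UMI, and Cndp2 was 0.89 with at least 3 and 1.07 with at least 10. The cause was not tested. Of the alternatives run on single genes, the direction and size held in 720 of 896 for P0 against E15.5. They held in 1333 of 1619 for the transplant against P0 and in 1047 of 1137 for the transplant against E17.5. Alternatives that changed only the UMI minimum are among these. That minimum decides which genes are counted and leaves the ratio of a gene as it was. Agreement under it was therefore fixed in advance and raises the numbers that held, so they do not measure how stable the ratios were. Slc12a3 cells numbered 16, 29 and 36 at E15.5, E17.5 and P0, which limits the precision of their levels.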
